A study of Mus musculus with 3 samples.

Results

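The genes described here are 39 genes of the oligodendrocyte lineage, chosen by name and found by symbol among the 31253 genes listed in each matrix. They were followed through single cells of the arcuate nucleus of the hypothalamus, a region that senses nutrients and controls feeding, in male C57BL/6JRj mice of 5-6 weeks. From weaning, 1 group of mice had standard chow for 15 days (SC), the second had chow for 10 days and a high-fat high-sugar diet for the next 5 days (HFHS_5d), and the third had the high-fat high-sugar diet for 15 days (HFHS_15d). Tissue punched from the 6 mice on a diet went together into 1 droplet library. Each diet therefore has 1 library, the libraries were not replicated, and no test between diets was possible. Every difference given is between libraries, and diet cannot be told apart from pool or library preparation.

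Oligodendrocytes wrap axons in myelin, a stack of membrane rich in galactolipids and held together by a small set of abundant proteins. They arise from precursors that carry the PDGF receptor Pdgfra and keep dividing in the young brain. A precursor that leaves the cycle passes through a short committed state with Bmp4 and the receptor Gpr17, then a premyelinating state, before it makes compact myelin with Mog and Opalin. The members cover this path: surface and matrix genes of precursors, the transcription factors that specify and drive the lineage, genes of the passage states, myelin proteins, enzymes of myelin lipids, and a pair of genes, Klk6 and Anxa5, that mark a subset of mature cells.

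After filtering, the libraries held 4825 (SC), 4041 (HFHS_5d) and 5157 (HFHS_15d) cells with 49238954, 43118054 and 35279159 UMIs (unique molecular identifiers, each marking 1 captured transcript). Cells were clustered without the 39 members, so that stages were not built from most of the genes described. Clusters of the lineage held 976, 737 and 848 cells, of which 902, 681 and 810 were placed in 4 stages: precursor-like (led by Pdgfra), committed-like (Bmp4 and Gpr17), newly formed-like (Cemip2 and 9630013A20Rik) and mature-like. Cemip2 and 9630013A20Rik were on the marker lists of both the committed and the newly formed stage, so as markers they do not tell these stages apart. For brevity the stages are called precursors, committed, newly formed and mature cells. Gpr17, Enpp6, Mog and Opalin define the order of stages and also served as markers, so their levels by stage are a description. The HFHS_15d library was the shallowest in every stage, with a median of 9475 UMIs in mature cells against 14258 in SC and 15480 in HFHS_5d. Between 3 and 23 of the kept barcodes were shared by a pair of libraries.

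Pdgfra and Bmp4 were among the markers that named the stages, so their levels by stage are a description too. Pdgfra stood at 1475, 1473 and 1731 CPM (UMIs of the gene per 1000000 UMIs of the stage and library) in precursors of SC, HFHS_5d and HFHS_15d, and at 29.2 CPM or less in the committed and later stages. Bmp4 stood at 1072, 1212 and 1093 CPM in committed cells and at 29.1 CPM or less elsewhere in the lineage. Values below keep the order SC, HFHS_5d, HFHS_15d.

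Precursors made up 34.2% (95% Clopper-Pearson interval 31.2 to 37.3), 37.3% (33.8 to 40.9) and 32.0% (28.8 to 35.2) of lineage cells. Committed cells made up 7.48%, 5.97% and 7.90%, and newly formed cells 3.89%, 3.53% and 5.19%. Mature cells made up 46.8% (43.7 to 50.01), 45.6% (42.0 to 49.3) and 50.5% (47.1 to 53.9). The intervals of the 3 libraries overlapped at every one of these stages. They cover counting error only.

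**Figure D1:**
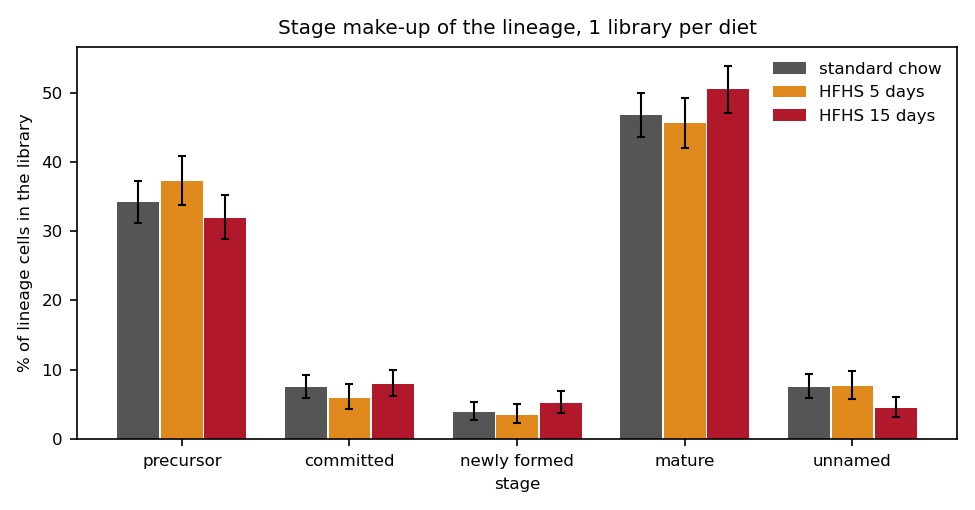
Bars give the share of lineage cells in each stage, in percent (y axis), for the 3 libraries, with 95% Clopper-Pearson intervals that cover counting error only. The mature share lies between 45.6% and 50.5% in the 3 libraries.

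The promoters of 1 member per stage are printed to show the sequence near the annotated start of genes that mark each stage most sharply. Among members highest in a stage with 1 promoter in the RefSeq table (GRCm38.p6), the one with the largest fold over the next stage was taken, after its values were seen: Cspg4 for precursors (chr9:56864854-56865103, plus strand), Mycl for committed cells (chr4:122995681-122995930, plus strand), Rras2 for newly formed cells (chr7:114117782-114118031, minus strand) and Hapln2 for mature cells (chr3:88027512-88027761, minus strand). Each run is the 250 bases before the start in the RefSeq table. The GENCODE M21 annotation places some starts elsewhere. There Mycl starts at 122995652, so its whole run lies inside the gene. Cspg4 starts at 56865033 and Hapln2 at 88027583, so part of each of these runs lies inside the gene. Capitals mark ACAAT or ACAAAG, cores bound by SOX factors, and CTGGCAC or CTGGTAC, a motif of the myelin factor MYRF, on either strand.
Cspg4: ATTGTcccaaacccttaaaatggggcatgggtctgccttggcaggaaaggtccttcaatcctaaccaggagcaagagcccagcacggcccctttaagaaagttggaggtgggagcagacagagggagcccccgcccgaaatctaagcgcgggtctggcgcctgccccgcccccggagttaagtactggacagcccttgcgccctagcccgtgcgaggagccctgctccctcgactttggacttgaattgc
Mycl: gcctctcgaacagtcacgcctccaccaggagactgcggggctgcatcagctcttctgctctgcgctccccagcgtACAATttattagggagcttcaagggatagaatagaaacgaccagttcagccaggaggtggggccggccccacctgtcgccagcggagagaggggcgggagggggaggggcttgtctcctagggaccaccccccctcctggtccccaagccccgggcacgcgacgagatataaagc
Rras2: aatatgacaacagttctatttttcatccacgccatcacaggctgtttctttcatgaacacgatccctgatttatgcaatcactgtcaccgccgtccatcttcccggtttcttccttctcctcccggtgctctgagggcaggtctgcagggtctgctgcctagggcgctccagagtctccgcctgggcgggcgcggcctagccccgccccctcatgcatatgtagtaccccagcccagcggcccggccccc
Hapln2: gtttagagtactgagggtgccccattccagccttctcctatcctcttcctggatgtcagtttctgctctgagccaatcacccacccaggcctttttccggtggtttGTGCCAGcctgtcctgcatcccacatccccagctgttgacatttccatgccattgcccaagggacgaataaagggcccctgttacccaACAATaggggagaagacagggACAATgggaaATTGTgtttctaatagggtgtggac

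Of these, Hapln2 held the MYRF motif, Rras2 held none of the motifs, and the other promoters shown held ACAAT alone. Promoters were found for 30 of the 39 members, 37 in all. ACAAT occurred in 12 of these 37 (32.4%) and in 27.7% of all 32851 promoters. ACAAAG occurred in 8 (21.6%) and in 16.5% of all. The MYRF motif occurred in 5 (13.5%) and in 5.93% of all. The promoters with the MYRF motif belonged to Mog, Cnp, Hapln2 and, at 2 of its start sites, Mag. Promoters of members highest in precursors or committed cells held it in 0 of 6 and 0 of 10, those highest in newly formed cells in 3 of 10, and those highest in mature cells in 2 of 11. A match describes letters, not a bound site.

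Each member had a stage at which its level was highest, and for 38 of the 39 that stage was the same in all 3 libraries. The exception was Tspan2, a myelin tetraspanin, whose newly formed and mature levels were close (2454 and 2342 CPM over the libraries). Precursors held the highest level of 9 members, committed cells of 10, newly formed cells of 9 and mature cells of 11. The highest stage exceeded the next by over 2-fold for 25 members. This count was 8 of 9 in precursors, 6 of 10 in committed cells, 2 of 9 in newly formed cells and 9 of 11 in mature cells, so newly formed cells shared most of their genes with a neighbouring stage.

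**Figure D2:**
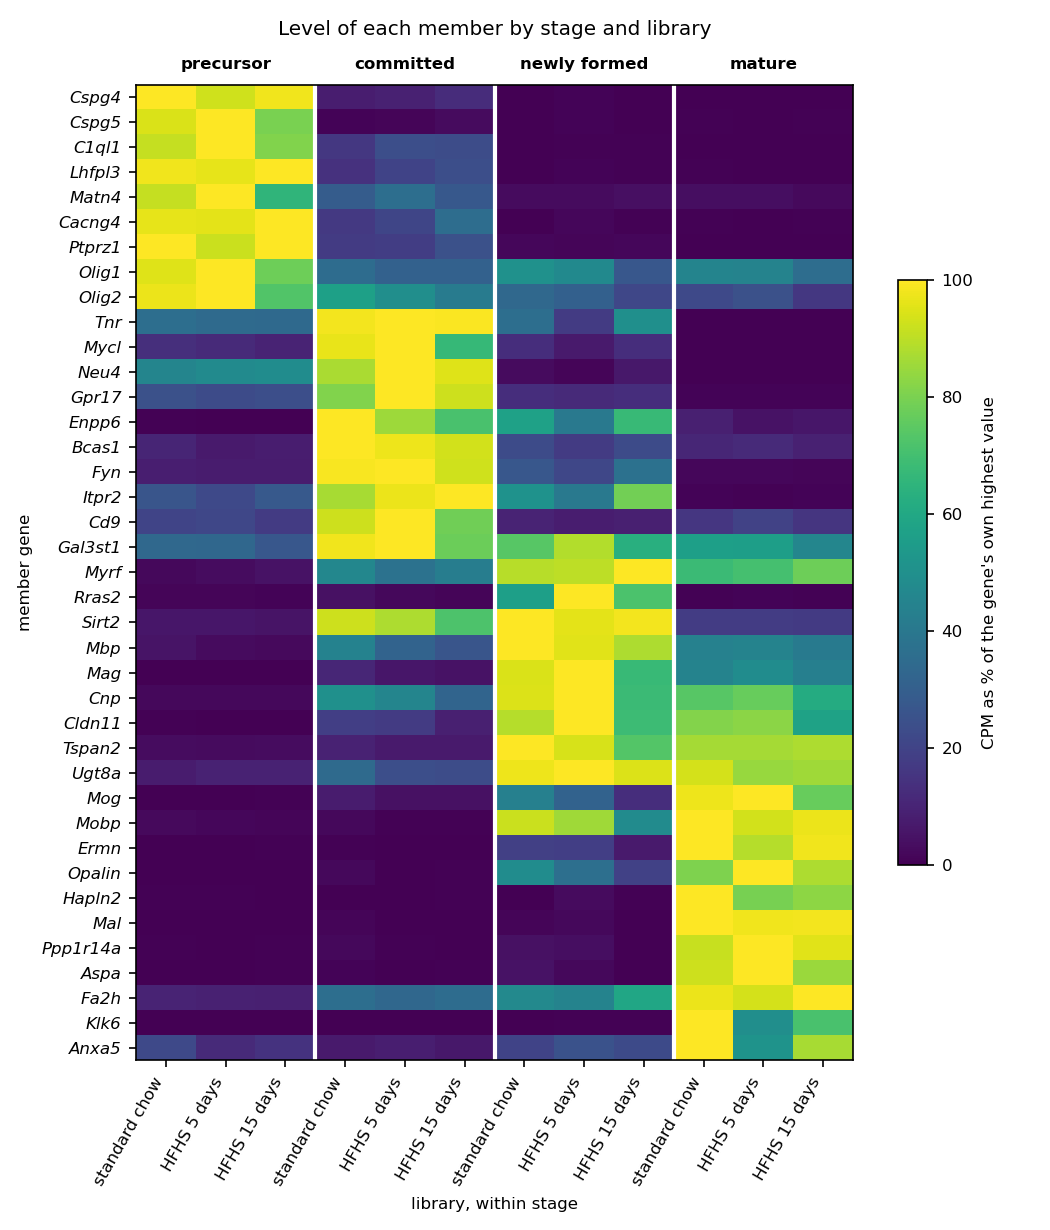
Each row is a member and each column a library within a stage; colour gives the CPM as a percent of that gene's own highest value. Blocks of 9, 10, 9 and 11 members are ordered by the stage of their highest level, and the 3 libraries of a stage resemble each other in most rows.

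The surface and matrix genes other than Tnr were highest in precursors. Ptprz1, a receptor phosphatase that binds chondroitin sulfate matrix, stood at 4316, 3976 and 4305 CPM in precursors and at 756, 779 and 1067 CPM in committed cells. Cspg5, a chondroitin sulfate proteoglycan, stood at 4158, 4402 and 3516 CPM in precursors and at 44.5, 58.0 and 132 CPM in committed cells, a 56.0-fold step over the libraries. Cspg4, the proteoglycan known as NG2, stood at 700.1, 649 and 686 CPM in precursors and at 5.5 CPM or less in newly formed and mature cells. Lhfpl3 and Cacng4, the latter an AMPA receptor auxiliary subunit, also stepped down at commitment, with 5.21-fold and 4.18-fold between precursors and committed cells. C1ql1 (4.49-fold) and Matn4 (2.86-fold), a secreted complement-like factor and a matrilin, did the same. Tnr, the matrix glycoprotein tenascin-R, was the exception among the precursor genes. It stood at 597, 569 and 564 CPM in precursors and at 1617, 1647 and 1640 CPM in committed cells.

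The transcription factors separated by stage. Olig1 stood at 3046, 3200.5 and 2488 CPM in precursors and stayed above 860 CPM in every later stage and library. Olig2, which specifies the lineage, stood at 959, 986 and 717 CPM in precursors and at 218, 246 and 161 CPM in mature cells. Mycl, a MYC family factor, stood at 393, 407 and 273 CPM in committed cells, at 54.7 CPM or less in precursors and newly formed cells and at 0.9 CPM or less in mature cells. Myrf, which drives myelin genes, stood at 7.7, 11.7 and 18.4 CPM in precursors, 168, 137 and 155 CPM in committed cells, 326, 328 and 364 CPM in newly formed cells and 248, 257 and 285 CPM in mature cells.

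Of the 9 genes of the passage states, 7 were highest in committed cells and 2, Rras2 and Sirt2, in newly formed cells. Gpr17, Bcas1, Fyn and Cd9 exceeded the next stage by over 2-fold in committed cells, and Neu4, Enpp6 and Itpr2 by less. Gpr17, the receptor that marks committed cells, stood at 2641, 3253 and 3007 CPM there, 3.77-fold its precursor level, and was carried by 89.1% (86.8 to 91.1) of the 843 lineage cells with Pdgfra. Bcas1, a marker of cells starting to myelinate, stood at 2584, 2520 and 2407 CPM in committed cells and was 4.64-fold its newly formed level. Fyn, a Src family kinase that acts in myelination, stood at 3494, 3531 and 3275 CPM, and Cd9, a tetraspanin, at 6634, 7167 and 5608 CPM. Neu4, a sialidase, stood at 329, 344 and 349 CPM in precursors, 628, 720 and 685 CPM in committed cells and at 1.4 CPM or less in mature cells. Rras2, a RAS-like GTPase, stood out in newly formed cells, with 322, 572 and 410 CPM there and 26.1 CPM or less elsewhere in the lineage, beside 35.8 CPM in endothelial cells. Sirt2, a deacetylase of myelin, stood at 6149, 5892 and 6048 CPM in newly formed cells and close to that, at 5683, 5386 and 4432 CPM, in committed cells.

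Enpp6, a choline phosphodiesterase used to name newly formed cells, was higher in committed cells (1590, 1354 and 1134 CPM) than in newly formed cells (908, 644 and 1071 CPM). This order turned when barcodes above 10% mitochondrial UMIs were removed, when members were kept in the clustering, when cells were thinned to 1000 UMIs or when stages were set by single marker genes. Itpr2, a calcium release channel, followed the same stages, with 598, 669 and 689 CPM in committed and 352, 278 and 542 CPM in newly formed cells.

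Myelin genes differed in the stage of their highest level, some by a wide and some by a narrow margin. Mbp, the myelin basic protein, stood at 5441, 3910 and 3265 CPM in committed cells, 12320, 11756 and 10819 CPM in newly formed cells and 5425, 5504 and 5019 CPM in mature cells. Mag, an adhesion molecule facing the axon, stood at 7980, 8451 and 5707 CPM in newly formed cells and 3783, 4096 and 3662 CPM in mature cells. Cnp, a cytoplasmic myelin enzyme, and Cldn11, which seals the myelin turns, were also highest in newly formed cells. Over the libraries Cnp stood at 7398 CPM there against 5923 CPM in mature cells, and Cldn11 at 4161 against 3601 CPM. Mal, a lipid raft protein of myelin, had a wide margin. Mal stood at 183, 249 and 45.7 CPM in newly formed cells and at 12234, 11959 and 12009 CPM in mature cells, 71.7-fold over the libraries. Hapln2, a link protein of the node of Ranvier, was 72.7-fold higher in mature than in newly formed cells, Aspa, which breaks down N-acetylaspartate, 35.2-fold, and Ppp1r14a, a phosphatase inhibitor, 31.3-fold. Ermn, a cytoskeletal protein, was 6.12-fold higher and Mog, on the outer myelin surface, 2.96-fold. Opalin, a myelin membrane glycoprotein, stood at 852, 642 and 342 CPM in newly formed and 1416, 1752 and 1534 CPM in mature cells. Mobp, a basic protein of myelin, stood at 3020 CPM in newly formed and 3745 CPM in mature cells over the libraries. The narrower orders moved with the processing. Mog, Mobp and Opalin were highest in newly formed cells when 1000 genes per barcode were required or no doublets were removed. Cldn11, Tspan2 and Ugt8a were highest in mature cells with at most 10% mitochondrial UMIs, with members kept in the clustering, with TMM scaling (a scaling by the trimmed mean of gene ratios) and with stages set by single marker genes, and the last of these also moved Mbp, Mag and Cnp to mature cells.

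Of the 4 enzymes of myelin lipids, Aspa had the 35.2-fold step given above and the other 3 differed less between newly formed and mature cells. Ugt8a, which makes galactosylceramide, stood at 1409, 1444 and 1368 CPM in newly formed and 1352, 1219 and 1236 CPM in mature cells. Fa2h, which hydroxylates its fatty acid, stood at 305, 289 and 382 CPM and then 626, 603 and 645 CPM. Gal3st1, which adds the sulfate of sulfatide, was highest in committed cells (629, 643 and 499 CPM) and already stood at 216, 215 and 173 CPM in precursors.

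Outside the lineage, 6 large classes of at least 100 cells per library (astrocytes, ventricle wall cells, microglia, endothelial cells, mural cells and neurons) gave the background. Over these classes, Enpp6 stood at 0.11%, Gpr17 at 0.18% and Klk6 at 0.30% of the level in their highest stage. The 17 myelin members summed to 853, 853 and 767 CPM in the other classes against 48386, 48631 and 44790 CPM in mature cells. Several members were not particular to the lineage. Anxa5, a phospholipid-binding annexin, stood at 1273 CPM in ventricle wall cells and 557 CPM in mural cells against 114 CPM in mature oligodendrocytes. Cd9 stood at 1063 CPM in ventricle wall cells and 922 CPM in microglia. Ptprz1 stood at 1626 CPM in astrocytes, Cspg4 at 535 CPM and Ppp1r14a at 613 CPM in mural cells, and Mal at 676 CPM in endothelial cells.

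In precursors, Mbp lay within or near the range of the classes outside the lineage. It stood at 626, 338 and 315 CPM in precursors. Over the libraries it stood at 610 CPM in astrocytes and 505 CPM in neurons, the highest of these classes. The others ranged from 159 CPM in ventricle wall cells to 466 CPM in mural cells. All these classes together held Mbp at 284, 331 and 268 CPM, well below precursors in SC and closer to them in the other libraries. After thinning every cell to 1000 UMIs, 22.7%, 22.0% and 19.8% of precursors had an Mbp UMI, and 28.1%, 29.97% and 22.7% of astrocytes (unthinned, 54.8%, 57.8% and 50.2% of precursors). The thinned share was lower in precursors than in astrocytes in each library. Among the precursor sub-clusters Mbp ranged from 240 CPM in sub-cluster 16 to 2996 CPM in sub-cluster 12, whose median was 1081 UMIs a cell. Of the lipid enzymes, Gal3st1, Ugt8a and Fa2h lay well above the other classes in precursors, and Aspa did not. Over the libraries Gal3st1 stood at 205 CPM, Ugt8a at 128 CPM and Fa2h at 60.2 CPM. Neurons, the highest of the other 6 classes for each, held them at 9.99, 31.4 and 13.6 CPM. Aspa stood at 2.61 CPM in precursors, below its 23.4 CPM in astrocytes and 11.3 CPM in neurons.

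Members were compared between libraries within a stage by a size rule: a gene needed 100 UMIs or more over the compared libraries, a level of 30 CPM in one of them, a 1.5-fold difference in either direction, and a 95% interval of that ratio lying wholly beyond 5 to 4. The rule is a description of size, not a test. Its intervals leave out the spread between cells and between mice. In mature cells, 3 members were lower in HFHS_5d and none was past the rule in HFHS_15d. Over all genes 0.154% were past the rule as higher and 0.417% as lower in HFHS_5d, and 0.955% and 0.651% in HFHS_15d. The median log2 ratio of the 17 myelin members in mature cells was 0.02 in HFHS_5d (7 below 0) and -0.05 in HFHS_15d (12 below 0). Over all genes it was -0.01 and -0.01.

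The 3 members were Klk6, Anxa5 and Enpp6. Klk6, a secreted serine protease, stood at 290, 144 and 207 CPM in mature cells, a log2 ratio of -1.02 (-1.14 to -0.90) in HFHS_5d. Anxa5 stood at 142, 72.6 and 123 CPM, a log2 ratio of -0.96 (-1.13 to -0.80). Enpp6 stood at 141, 76.0 and 96.9 CPM, a log2 ratio of -0.89 (-1.06 to -0.72). In each the HFHS_15d level lay between the others. A Klk6 UMI was found in 16.4% (13.1 to 20.1), 7.14% (4.63 to 10.4) and 10.0% (7.37 to 13.3) of mature cells, and in 8.76%, 3.72% and 7.42% of those thinned to 2000 UMIs. The share of mature cells with Anxa5 hardly differed, at 28.4%, 29.5% and 29.0%.

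All 3 genes were highest in the same 1 of the 6 mature sub-clusters, to different degrees. Sub-cluster 8 held 3691 of the 3765 Klk6 UMIs of mature cells, 1610 of the 1951 Anxa5 UMIs and 1123 of the 1845 Enpp6 UMIs. Sub-cluster 8, led by Hopx and Nkx2-9, held Klk6 at 1619 CPM, Anxa5 at 706 CPM, Hapln2 at 699 CPM and Enpp6 at 493 CPM. In the other mature sub-clusters Klk6 ranged from 1.00 to 85.3 CPM, Anxa5 from 7.5 to 85.3 CPM and Enpp6 from 22.1 to 85.6 CPM. Sub-cluster 8 was also the lowest of the 6 for Opalin (300 CPM, against 2510 in sub-cluster 3), Mal (6171 against 15333), Cd9 (163 against 2015), Tspan2 (837 against 3904) and Olig1 (856 against 1971). It was the highest of the 6 for Ermn (2958 CPM), Ugt8a (1931 CPM), Ppp1r14a (1409 CPM), Fa2h (807 CPM) and Gal3st1 (567 CPM), so its myelin members went both ways. It held 15.1% (11.9 to 18.7) of the mature cells in SC, 5.65% (3.44 to 8.69) in HFHS_5d and 8.41% (5.96 to 11.5) in HFHS_15d. With the mix of sub-clusters held fixed over those with at least 20 cells in both libraries, which leaves out sub-clusters 8 (19 HFHS_5d cells) and 13 (12 HFHS_5d cells), the log2 ratio of Enpp6 was -0.60. The same mix gave 0.44 for Klk6 and 0.35 for Anxa5, values that rest on the few UMIs of these genes outside sub-cluster 8.

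Other mature sub-clusters followed the library. Sub-cluster 1 (led by Il33) held 163, 170 and 15 cells and sub-cluster 13 (led by H2ac18) 23, 12 and 188 cells. In sub-clusters 1 and 13, Aspa stood at 799.5 and 741 CPM and Ermn at 2174 and 2272 CPM. Sub-cluster 13 had the lowest Mbp (4663 CPM), Mag (2669 CPM) and Gal3st1 (238 CPM) of the 6 and the highest Myrf (303 CPM). Sub-cluster 3, led by Cxcl12, had the highest Mag (7180 CPM), Cnp (8520 CPM), Mog (3313 CPM) and Gpr17 (107 CPM) of the 6 and the lowest Hapln2 (6.01 CPM).

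**Figure D3:**
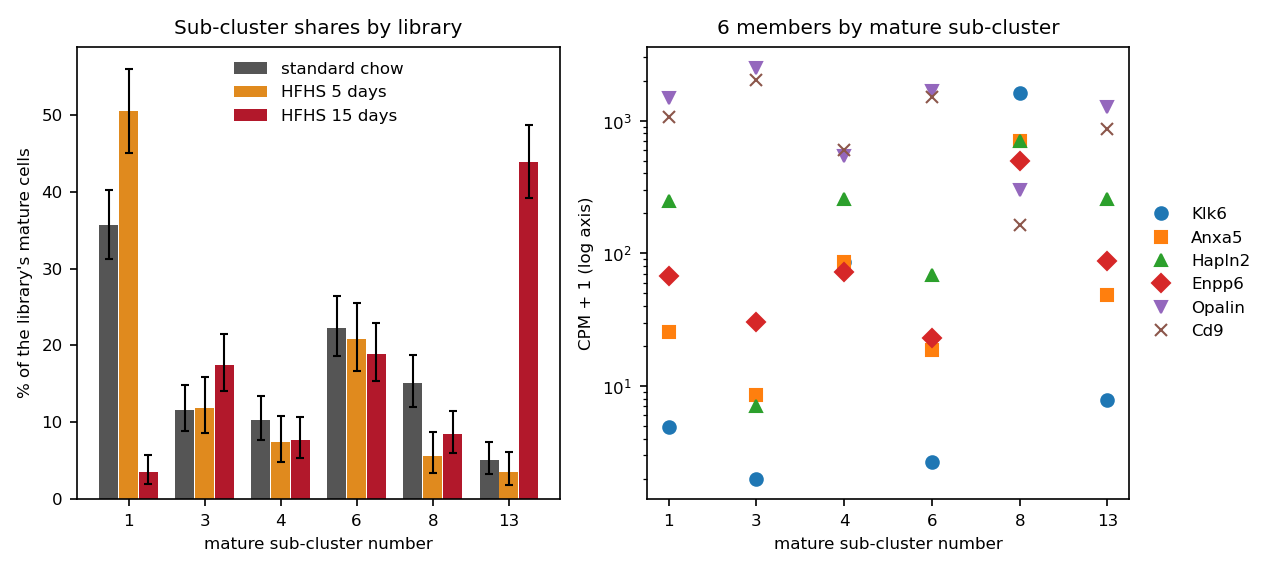
Left, the share of each library's mature cells in each of 6 sub-clusters, in percent, with 95% Clopper-Pearson intervals. Right, the level of 6 members in each sub-cluster (CPM + 1, log axis); Klk6 reaches 1619 CPM in sub-cluster 8 and at most 85.3 CPM in the others.

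In committed cells, 4 members were lower in HFHS_5d, and 3 were higher and 7 lower in HFHS_15d. Over all genes 0.267% were past the rule as higher and 1.6% as lower in HFHS_5d, and 1.85% as higher and 2.7% as lower in HFHS_15d. Mag stood at 898, 507 and 413 CPM, Cldn11 at 892, 838 and 428 CPM and Cnp at 4170, 3760 and 2658 CPM. Mog stood at 183, 112 and 109 CPM and Mobp at 82.4, 18.9 and 25.4 CPM. Mal stood at 161, 8.3 and 17.8 CPM, and 1 SC cell held 52.4% of the SC UMIs. Of the 8 precursor genes, 3 were past the rule as higher in HFHS_15d and none as lower: Cspg5 (log2 ratio 1.57, 1.08 to 2.07), Lhfpl3 (174, 246 and 296 CPM, 0.77) and Cacng4 (112, 141 and 241 CPM, 1.11). The others were not past the rule. Of these, Cspg4 stood at 56.3 CPM in SC and 87.7 CPM in HFHS_15d, C1ql1 at 294 and 423 CPM and Ptprz1 at 756 and 1067 CPM. Tnr stood at 1617 and 1640 CPM and Matn4 at 240 and 227 CPM. The myelin members' median log2 ratio was -0.46 in HFHS_5d (11 of 12 measured below 0) and -0.74 in HFHS_15d (13 of 13), beside 0.02 and -0.01 over all genes.

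Committed cells fell into a pair of sub-clusters. Sub-cluster 11 held Mag at 1581 CPM, Cldn11 at 1451 CPM and Cspg5 at 11.8 CPM, and sub-cluster 14, led by Bmp4, held them at 183, 398 and 103 CPM. Sub-cluster 11 took 38.4% (27.2 to 50.5) of the committed cells in SC, 22.7% (11.5 to 37.8) in HFHS_5d and 16.4% (8.49 to 27.5) in HFHS_15d. Within sub-cluster 14 alone the HFHS_15d log2 ratios were -0.86 for Mag and -0.67 for Cldn11, still past the rule, and -0.31 for Mbp, -0.41 for Cnp, 0.45 for Lhfpl3 and 0.63 for Cacng4, no longer past it. Markers of other cell types differed between the libraries in committed cells. The 8 pericyte markers summed to 3.36, 260 and 3.81 CPM and the 5 red blood cell markers to 8.40, 74.6 and 11.4 CPM. The 7 neuron markers summed to 202, 250 and 400 CPM, beside 1367, 1300 and 1627 CPM in precursors, and the 3 pars tuberalis markers to 12.6, 21.3 and 43.2 CPM. Cspg5 stood at 222 CPM in neurons. The part of these markers in the committed values was not tested. The committed values also moved with the filtering and the stage names: with no barcodes removed as doublets, the HFHS_5d log2 ratios were 0.70 for Mog, 0.84 for Mobp and 2.31 for Mal, and at a clustering resolution of 0.5 the HFHS_15d ratio of Cspg5 was -0.31.

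In newly formed cells, with 38, 26 and 44 cells, 1 member was higher and 1 lower in HFHS_5d, and 1 was higher and 7 lower in HFHS_15d. Over all genes 1.17% were past the rule as higher and 2.53% as lower in HFHS_5d, and 2.01% and 4.14% in HFHS_15d. Rras2 was higher in HFHS_5d (log2 ratio 0.83, 0.63 to 1.03) and Tnr lower (596, 285 and 819 CPM, -1.07). In HFHS_15d, Mog stood at 312 CPM against 1052 in SC (log2 ratio -1.76, -1.97 to -1.55), Mobp at 1867 against 3543 CPM (-0.92), Ermn at 168 against 431 CPM (-1.36), Opalin at 342 against 852 CPM (-1.32) and Mal at 45.7 against 183 CPM. Olig1 (1617, 1519 and 864 CPM, -0.90) and Olig2 (331, 302 and 209 CPM, -0.66) were lower too, and Itpr2 was higher (0.62). The myelin members' median log2 ratio was -0.04 in HFHS_5d (9 of 16 measured below 0) and -0.48 in HFHS_15d (13 of 15). Over all genes it was -0.03 and 0.02. A single cell held 33.1% of the Ermn and 36.4% of the Opalin UMIs of the HFHS_15d newly formed cells. The median UMI count of these cells was 16444 in HFHS_15d and 26887 in SC, and its part in these values was not tested. With at least 1000 genes per barcode the HFHS_15d log2 ratio of Opalin was 0.06, and after thinning to 1000 UMIs that of Olig2 was 0.66.

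In precursors, Mbp was the 1 member lower in HFHS_5d (log2 ratio -0.89) and Mbp (-0.99) and Mobp (-0.73) were lower in HFHS_15d. Mobp stood at 96.6, 63.0 and 58.1 CPM in precursors, below its 128 CPM in astrocytes and 151 CPM in neurons over the libraries. Outside the lineage the HFHS_15d log2 ratio of Mobp went both ways. It was -0.56 in astrocytes, -0.56 in neurons, -0.50 in microglia and -0.32 in ventricle wall cells. In mural cells it was 0.20 and in endothelial cells 0.36. Within each library both genes were lower in precursors than in astrocytes, where Mbp stood at 719, 657 and 490 CPM. Against neurons (591, 513 and 391 CPM) Mbp was higher in SC precursors and lower in those of the other libraries. Over all genes 0.12% were past the rule as higher and 0.15% as lower in HFHS_5d, and 0.841% in each direction in HFHS_15d. The precursor genes themselves were not past the rule in precursors in either comparison. Precursors were also spread differently over their sub-clusters: sub-cluster 7 held 50%, 44.4% and 72.7% of them, sub-cluster 10 17.96%, 23.3% and 3.32%, and sub-cluster 12, with Mobp at 466 CPM, 16.2%, 15.3% and 8.12%. With the mix of sub-clusters held fixed the log2 ratios of Mbp were -1.21 (HFHS_5d) and -1.41 (HFHS_15d) and that of Mobp -0.93 (HFHS_15d). For HFHS_15d this mix left out sub-clusters 10 (9 HFHS_15d cells) and 16 (15 HFHS_15d cells). It weighted sub-clusters by their cells, so the shallow sub-cluster 12, the highest in Mbp, counted for more than in the summed UMIs.

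**Figure D4:**
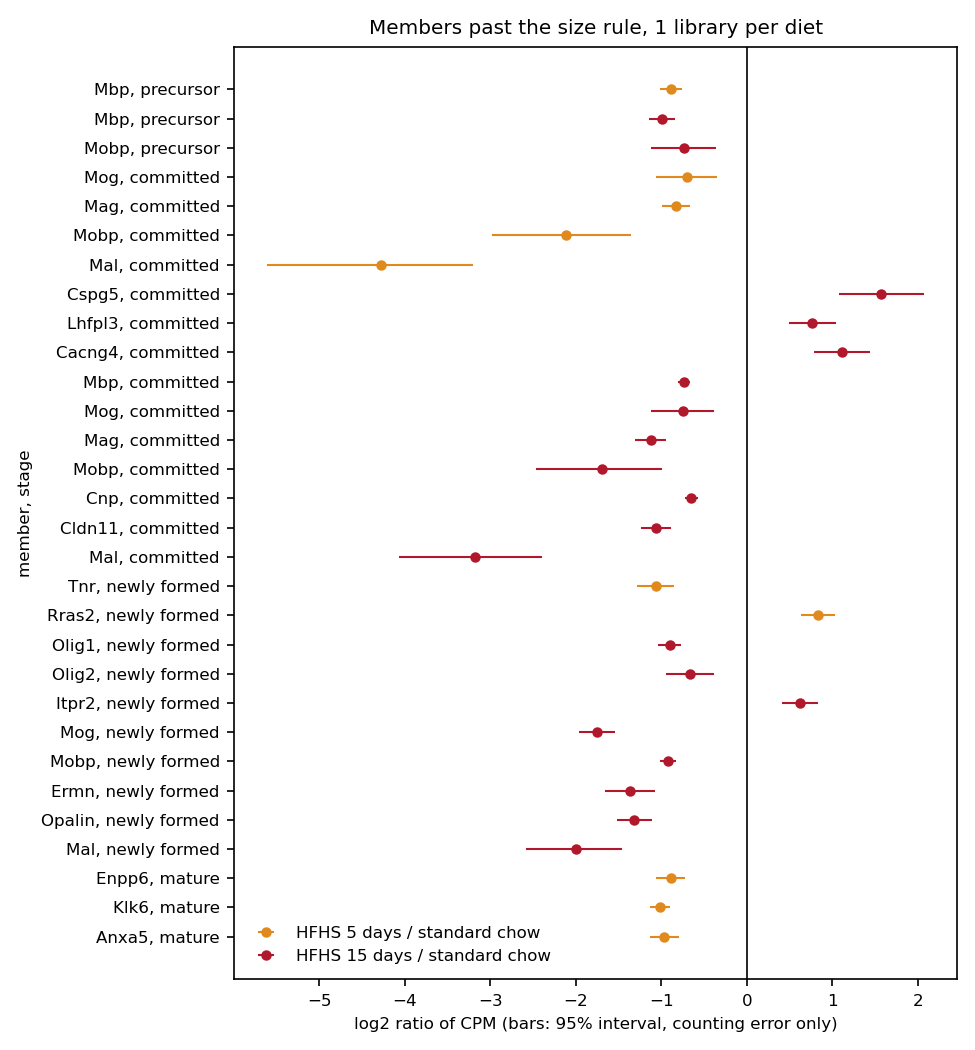
Log2 ratio of CPM (x axis) for each member past the size rule, by stage, with 95% intervals that cover counting error only; colours give the comparison. Of 30 ratios, 25 lie below 0. They share the SC library and repeat some genes, so they are not independent. Over all genes, calls in committed and newly formed cells also leaned lower in both comparisons. In HFHS_15d these were 2.7% lower and 1.85% higher in committed cells, and 4.14% and 2.01% in newly formed cells.

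The other genes of the lineage, 67 found of 69 listed, were set beside the members by the same rule. In mature cells 44 were measured well enough for the rule, and 1 was higher in HFHS_5d (Il33, an alarmin cytokine, 185 and 278 CPM) and none in HFHS_15d. In committed cells, of 38, 5 were lower in HFHS_5d and 7 in HFHS_15d, with Ptgds, prostaglandin D synthase, at 746, 189 and 163 CPM and Trf, transferrin, at 147, 74.6 and 52.1 CPM. In newly formed cells, of 40, 2 were higher and 5 lower in HFHS_5d, and 3 were higher and 11 lower in HFHS_15d. Ptgds was among the higher (832, 1835 and 1861 CPM) and Ctps, a nucleotide synthesis enzyme, among the lower (516, 313 and 118 CPM). In precursors 1 of 39 was past the rule, Ptgds, in HFHS_15d (55.6 and 122 CPM). Ptgds was also higher in HFHS_15d than in SC in astrocytes (97.1 and 181 CPM), endothelial cells (25.3 and 103 CPM), mural cells (67.3 and 192 CPM), microglia (48.5 and 83.8 CPM) and neurons (114 and 186 CPM), and level in ventricle wall cells (141 and 139 CPM).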

How the data were processed

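Single-cell libraries were prepared with a 10x Genomics 3' kit, per the labels' protocols. The authors deposited raw UMI counts per gene and barcode, made with Cell Ranger (version 3.1.0 per the file headers) on GRCm38, and used Scanpy 1.4.4 and SAMtools, per the submitters' processing notes; the gene annotation is not given in the sources used here. The other deposited columns hold gene names and barcodes.

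Barcodes were kept from 500 detected genes upward and up to 20% mitochondrial UMIs, and the highest Scrublet scores were removed at 0.8% per 1000 barcodes (291, 211 and 344 barcodes). Scanpy 1.11.5 clustered cells of the 3 libraries together without the 39 members (3000 variable genes, 40 components, 15 neighbours, Leiden resolution 1), and lineage cells again (2000 genes, 20 components). A cluster took the name of the marker set with the highest mean z-score if that was at least 0.4, at least 3 of its markers were detected in 25% of cells, and no other set led its top 10 genes. Of 17 lineage sub-clusters, 14 were named; the others, led by astrocyte or microglia genes or shallow, were left out of the stages.

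The members, lists and tests were chosen with earlier results of these data known. The naming rule was also changed during the work. Versions that counted markers among leading genes, and versions with other marker sets, were dropped on cluster listings alone. The last change, from 1 pooled marker set for the lineage to 4 stage sets, was made after member values under the pooled set had been seen, because precursor clusters dropped out of the lineage under some alternatives. Of the 30 member calls under the rule used, 26 were also made under the pooled set, which made 31.

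UMIs were summed per stage and library and divided by that stage's total (CPM). Shares have Clopper-Pearson, sums exact Poisson and ratios exact conditional binomial intervals at 95%, which cover counting error only. Full values are given for members past the size rule, for Gpr17, Enpp6, Mog, Opalin, Klk6 and Anxa5, and for the highest member of each role group; others are given by examples chosen after their values were seen. Counts were also simulated with counting error alone, around the SC levels. In them the size rule recovered 99% of 2-fold changes in mature cells (4530 genes considered) and 81% in committed cells (3706 genes). Both are for HFHS_5d against SC. The simulation held no spread between cells, mice or libraries, so it does not show how the rule performs with that spread. All 39 members were found in GENCODE M21; Mobp shares exon sequence with Gm38642 on its strand. Alternatives included other filters, stage definitions, TMM scaling (edgeR 4.0.16), thinning and a fixed mix of sub-clusters.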

Additional observations from a re-analysis of the deposited data

How the results depend on the processing

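The highest stage of a member was kept for 35 to 39 of the 39 members under every alternative except stages set by single marker genes, which kept 15 and put 2 members highest in precursors and 18 in mature cells. The comparisons between libraries were less stable. The 30 member ratios gave 385 recomputed values, of which 254 stayed past the size rule, 108 kept their direction below it and 23 lay in the other direction; the cause was not tested. Some ratios turned under none of their alternatives, though many of these did not stay past the rule. In HFHS_5d this was Enpp6 in mature cells, past the rule in 11 of 13 alternatives. The rest were in HFHS_15d. In precursors, Mbp stayed past it in 12 of 13 and Mobp in 4 of 13. In committed cells, Cacng4 did so in 8, Mbp in 9, Mobp in 7 and Cnp in 5 of 13. In newly formed cells, Olig1 and Ermn did so in 9 of 13, Itpr2 in 4 of 13 and Mog in 9 of 12. The values nearest 0 were -0.0086 for Ermn, 0.015 for Itpr2, -0.033 for Cnp and 0.046 for Cacng4. No paired analysis was possible because each diet has 1 library, and no library could be left out for the same reason. Below, a count of members past the rule is given only where it changed by over 1.5-fold. A direction not named kept its count within that range. Under the rule used, both directions together gave 10 calls in HFHS_5d and 20 in HFHS_15d. The share over all genes was not computed under the alternatives, so these counts have no background beside them.

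With no barcodes removed as doublets, the mature share was 38.0%, 37.3% and 39.4%, the summed myelin members in other classes 1064 CPM, and members past the rule numbered 7 higher and 14 lower in HFHS_5d and 1 higher in HFHS_15d. The medians of the myelin members were then 0.32 (committed, HFHS_5d), -0.11 (newly formed, HFHS_15d) and -0.11 (mature, HFHS_15d), and ratios turned for Mog (0.70), Mobp (0.84) and Mal (2.31) in committed cells of HFHS_5d, for Cspg5 in committed cells (-0.62) and for Opalin (0.028) and Mal (0.21) in newly formed cells of HFHS_15d. With stages set by single marker genes, the mature share was 59.6%, 56.9% and 61.7%, the medians were -0.42 (newly formed, HFHS_5d), -0.18 (committed), 0.071 (newly formed) and -0.089 (mature, all HFHS_15d), and members past the rule numbered 2 higher in HFHS_5d and 2 higher and 6 lower in HFHS_15d. Ratios then turned for Mbp in precursors (0.84), Tnr (0.0047) and Rras2 (-0.32) in newly formed cells of HFHS_5d, and in HFHS_15d for Cspg5 (-0.27), Lhfpl3 (-0.0092), Mag (0.58), Cldn11 (0.23) and Mal (1.10) in committed cells and Mobp (0.16) in newly formed cells.

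With separate clustering of each library, the HFHS_5d mature share was 41.3%, the other classes held 788 CPM, the HFHS_5d medians were -0.043 (committed), -0.44 (newly formed) and 0.092 (mature), the HFHS_15d newly formed median was -1.07, Mag in committed cells of HFHS_5d turned (0.18), and members past the rule numbered 3 higher and 16 lower in HFHS_5d and 10 higher in HFHS_15d. After thinning to 1000 UMIs, the other classes held 1323 CPM, the medians were -0.16 (committed, HFHS_5d) and -0.10 (mature, HFHS_15d), members past the rule numbered 0 higher and 2 lower in HFHS_5d and 0 higher and 6 lower in HFHS_15d, and Mog in committed cells (0.92 and 0.78) and Olig2 in newly formed cells (0.66) turned. With at least 1000 genes per barcode, the HFHS_15d mature share was 46.7%, the other classes held 702 CPM, the newly formed median was -0.14, Opalin turned (0.062), and 1 member was higher and 7 lower in HFHS_15d. With at most 10% mitochondrial UMIs, the other classes held 665 CPM, the medians were 0.12 (newly formed, HFHS_5d) and -0.40 (committed, HFHS_15d), and 2 members were higher in HFHS_5d and 0 in HFHS_15d. With members kept in the clustering, the other classes held 787 CPM, the committed HFHS_15d median was -0.34, and 2 and 0 members were higher.

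The fixed mix of sub-clusters left out sub-cluster 8 for HFHS_5d, which held nearly all Klk6 UMIs and most Anxa5 UMIs, so its values for Klk6 (0.44) and Anxa5 (0.35) say nothing of their stability. The HFHS_15d medians were then -0.42 (committed) and -0.087 (mature), and 2 members were higher in HFHS_15d. At resolution 0.5, Cspg5 turned (-0.31) and 2 members were higher in HFHS_15d. With every cell given equal weight, the other classes held 1524 CPM, 2 members were higher in HFHS_5d and the mature HFHS_15d median was -0.089. When each gene's top cell was dropped, the other classes held 744 CPM. After thinning to 2000 UMIs, 8.76% (SC) and 3.72% (HFHS_5d) of mature cells had Klk6. With the lineage named from the pooled marker set, an alternative added after seeing the data, 4 members were higher in HFHS_5d. Calls made only there were Cspg5 and C1ql1 in committed cells, Enpp6 and Mal in newly formed cells (HFHS_5d) and Mal in precursors (HFHS_15d); calls lost were Mog in committed cells (both comparisons), Mobp in precursors and Itpr2 in newly formed cells. The committed and newly formed stages rest on 26 to 73 cells a library, and depth per cell was lowest in precursors (medians of 5208 to 8306 UMIs).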
